A study of Caenorhabditis elegans with 2 samples.

Results

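The heterochronic genes of Caenorhabditis elegans described here were lin-14, lin-28, lin-41, lin-42, lin-46, lin-66, hbl-1, daf-12 and sea-2, 9 of the 19973 nuclear protein-coding genes in the annotation. They were taken from a list of developmental timing genes. No measured value entered the rule, but the list was chosen with earlier results of these data known. Each gene was represented by every peak whose summit, the position of highest signal, lay from 2000 bp upstream of the gene to its end. The data were chromatin immunoprecipitation and sequencing (ChIP-seq) peak lists for EGRH-3, which belongs to the EGR (early growth response) group of zinc finger transcription factors. All worms were young adults of 65 h from strain RW12196, in which CRISPR had placed a TY1, EGFP and 3xFLAG tag in egrh-3 at its own locus (allele st12196). They had been synchronised by bleaching and starvation as L1 larvae, and the tagged protein was precipitated from whole animals with an antibody against GFP. The samples formed 1 group of 2 biological replicates, so no condition was compared with another, and all cell types of the animal were mixed.

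Heterochronic genes set the order and timing of cell fates from one larval stage to the next. In the textbook pathway, early-acting proteins such as LIN-14, HBL-1 and LIN-28 hold cells in early fates until the microRNA lin-4 and the let-7 family of microRNAs lower their levels, and LIN-41 acts later, until let-7 lowers it and adult fates begin. Hormone signalling through the nuclear receptor DAF-12 and the oscillating protein LIN-42 tie this order to growth and molting.

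Peak strength is given as the signal deposited by the authors, whose scaling is not stated, so a peak is compared with the other peaks of the same list, and rank 1 is the strongest. The 8 lists were a conservative and a larger thresholded list made from both replicates, a thresholded list for each replicate, and 4 ranked lists that also hold weaker regions. Thresholded peaks had passed a global irreproducible discovery rate (IDR, the estimated share of irreproducible peaks among those of that rank or better) of 0.01. The conservative list had 2194 nuclear peaks, the larger list 3254, the replicate 1 list 2850 and the replicate 2 list 1439, while the ranked lists had 25577 to 26921. The lists carry no read counts, so the sequencing depth is unknown. An untagged strain was not analysed here.

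Of the 9 genes, 8 had at least 1 conservative summit, 16 summits in all. By the same window, 10.03% of all nuclear protein-coding genes had one. lin-42 held the strongest, of signal 1110 and rank 47 of 2194, sea-2 held the most, with 5, and hbl-1 had none. Of the 16 summits, 5 (31.2%) fell in a promoter window, beside 38.5% of all conservative peaks. Of the others, 10 fell in coding exons or introns, classes with 21.9% and 14.8% of all conservative peaks. A promoter window reached 1000 bp upstream and 200 bp downstream of a 5′ end of a protein-coding transcript.

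The DNA under the summits is shown for the genes whose peaks carried the values described next, as 101 bases centred on the summit, read from the RefSeq copy of the WBcel235 assembly (ce11) on the strand of the gene. In the first set, capitals mark the 21 central bases around the summit, and the windows are chrII:1238003-1238103 for lin-42 intron 6 (minus strand), chrX:10637438-10637538 for daf-12 intron 1, chrX:11473377-11473477 for lin-14 intron 3, chrII:3964616-3964716 for sea-2 exon 6 and chrV:12968000-12968100 upstream of lin-46 (the last 4 on the plus strand).
lin-42 intron 6: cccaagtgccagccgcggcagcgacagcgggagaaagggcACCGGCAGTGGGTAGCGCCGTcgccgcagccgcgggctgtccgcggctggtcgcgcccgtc
daf-12 intron 1: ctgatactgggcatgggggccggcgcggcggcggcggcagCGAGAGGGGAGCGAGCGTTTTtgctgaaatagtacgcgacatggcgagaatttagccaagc
lin-14 intron 3: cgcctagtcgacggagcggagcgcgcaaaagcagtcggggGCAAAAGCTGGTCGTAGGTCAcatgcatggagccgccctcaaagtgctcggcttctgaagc
sea-2 exon 6: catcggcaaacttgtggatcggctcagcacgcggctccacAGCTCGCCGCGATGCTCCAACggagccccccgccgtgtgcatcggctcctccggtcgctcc
lin-46 upstream: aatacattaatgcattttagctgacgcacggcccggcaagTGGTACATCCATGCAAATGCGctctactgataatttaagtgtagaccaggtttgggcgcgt
In the second set, capitals mark GAGAGA on the strand shown, and the windows are chrIV:13887637-13887737 upstream of lin-66 (plus strand) and chrII:1247015-1247115 for lin-42 intron 1 (minus strand).
lin-66 upstream: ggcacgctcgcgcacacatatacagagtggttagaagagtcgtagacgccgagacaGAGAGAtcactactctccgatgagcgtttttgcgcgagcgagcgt
lin-42 intron 1: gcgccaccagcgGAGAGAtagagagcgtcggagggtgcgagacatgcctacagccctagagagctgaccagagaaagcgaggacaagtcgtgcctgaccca

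The base composition of these windows differed widely. The lin-42 intron 6 window was 77.2% GC and held 16 CG dinucleotides, the sea-2 exon 6 window was 69.3% GC with 13, and the lin-46 window was 46.5% GC with 6. None of the 7 windows overlapped an annotated untranslated region.

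lin-42, the worm homolog of the circadian regulator Period and a regulator of molting, lies on the minus strand at chrII:1233236-1252359 and has 7 transcripts with 5 distinct 5′ ends. Its strongest summit, at position 1238053, lay in intron 6 of 9 of the longest transcript, 14306 bp inside the gene and 1084 bp upstream of an internal 5′ end. The conservative signal there was 1110, and the replicates' own thresholded lists had summits 5 bp and 6 bp away, with 845 (rank 35 of 2850) in replicate 1 and 269 (rank 69 of 1439) in replicate 2. The summit thus stood among the strongest peaks of each list.

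The second lin-42 summit, at 1247065, lay in intron 1, 5294 bp inside the gene, and also within an exon of the noncoding gene F47F6.15. Its conservative signal was 463 (rank 197), with 362 (rank 174) in replicate 1 and 106 (rank 319) in replicate 2. The third, at 1236198, lay in coding exon 7 of 10, with a conservative signal of 256 (rank 455). Replicate 1 placed its own summit at the same base, with a signal of 202, but the thresholded list of replicate 2 had no summit within 200 bp. The ranked list of replicate 2 covered that base with a signal of 45.5 and a global IDR of 0.0261, above the threshold.

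**Figure D1:**
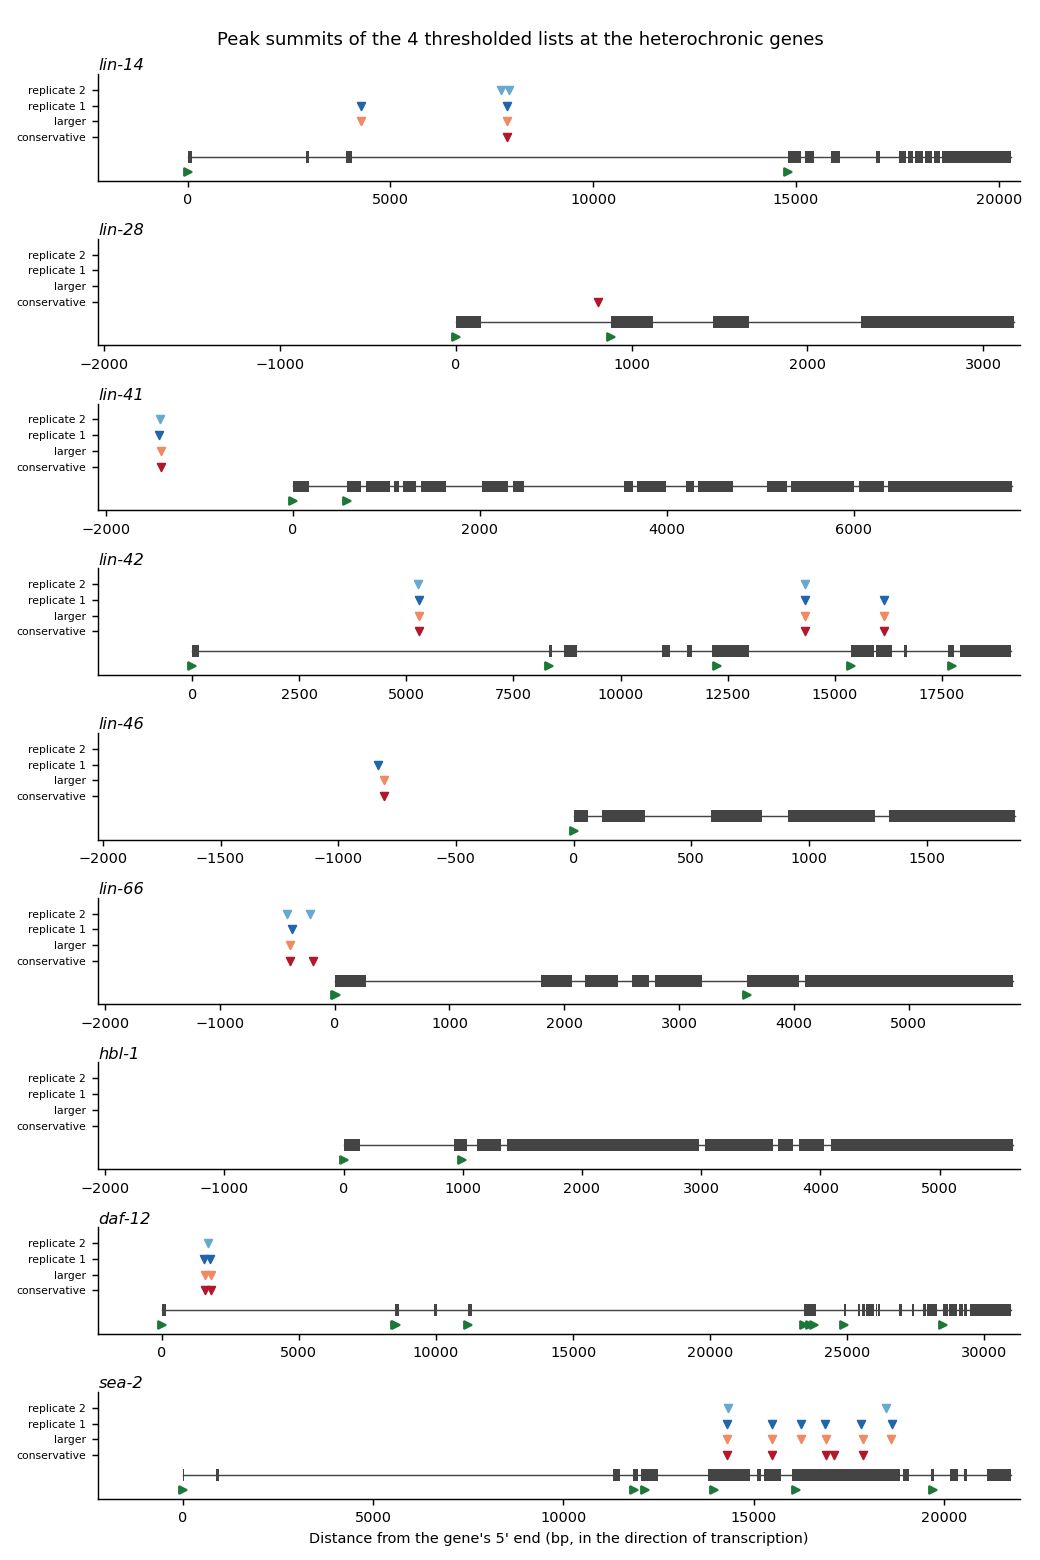
Positions of the summits in the 4 thresholded lists along each gene, with distance in bp from the gene's 5′ end in the direction of transcription. Dark boxes are exons of all transcripts, green arrowheads annotated 5′ ends, and triangles summits, one row per list; lin-42 and sea-2 have 3 and 5 conservative summits inside the gene, and hbl-1 has none.

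daf-12 encodes the nuclear hormone receptor for dafachronic acids and lies on the plus strand at chrX:10635908-10666875, with 10 transcripts and 9 distinct 5′ ends. It had 2 conservative summits, both in intron 1 of 18 and both within the interval chrX:10637293-10637748. The stronger, at 10637488, had a signal of 454 (rank 203) and lay 1580 bp downstream of the first 5′ end. Replicate 1 had a summit 33 bp away with 365 (rank 170 of 2850), and replicate 2 one 106 bp away with 113 (rank 285 of 1439). The weaker, at 10637704, had a signal of 34.5 and rank 2136, near the bottom of the list. All thresholded summits of daf-12 in the 4 lists fell between 10637455 and 10637704, although the gene window was 32968 bp long.

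lin-14, the target of lin-4 and a nuclear protein of the first larval stages, lies on the plus strand at chrX:11465560-11485871. Its 1 conservative summit, at 11473427 in intron 3 of 11, was 7867 bp inside the gene, with a signal of 242 (rank 502) and a global IDR of 0.00277. Replicate 1 placed its summit 6 bp away with 204 (rank 421). Replicate 2 had a pair of weaker summits instead, 55.9 at 11473289, in an exon of the noncoding gene T25C12.6, and 34.1 at 11473488. The same intron held a further summit near 11469836 in the larger list (69.2) and in replicate 1 (50.2), but not in the conservative list or in replicate 2. The replicates thus shared the site but not the exact position of its strongest base.

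sea-2, a zinc finger protein first known as an autosomal signal element in sex determination, lies on the plus strand at chrII:3950377-3972140, with 19 transcripts and 6 distinct 5′ ends. Its 5 conservative summits all lay in coding exons of the longest transcript, between 14289 and 17862 bp from its 5′ end. Among all 19973 genes, 9 had 5 or more conservative summits in the window. The strongest, at 3964666 in exon 6 of 14, had a signal of 258 (rank 449), with 214 in replicate 1 and 52.1 in replicate 2, and it was the only 1 of the 5 matched within 200 bp in both replicates' thresholded lists.

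Exons 8 and 9 of sea-2 held the other 4. The summit at 3965856 had a signal of 191 and counted as a promoter summit because it lay 639 bp upstream of an internal 5′ end. Those at 3967263 and 3968239 had signals of 125 and 112, and all 3 were matched in replicate 1 and not in replicate 2. The summit at 3967474, at 10.5 and rank 2193 of 2194, was matched in neither replicate, and its interval overlapped that of 3967263. A stronger site of the same exon was absent from the conservative list: it had 288 (rank 405) at 3968995 in the larger list, 247 (rank 328) in replicate 1 at 3969013 and 43.8 in replicate 2 at 3968863.

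lin-66, which limits lin-28 expression, had the strongest promoter peak among the members. It lies on the plus strand at chrIV:13888079-13893986, and its main summit at 13887687, 392 bp upstream, had a conservative signal of 304 (rank 368). Replicate 1 had 181 (rank 496) 16 bp away and replicate 2 had 121 (rank 247) 26 bp away. A weaker summit 188 bp upstream (signal 25.2, rank 2148) had an interval that overlapped the first. Replicate 2 had its own summit 31 bp from it (33.7), and replicate 1 had none nearer than 188 bp.

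lin-46 encodes a gephyrin-like protein that acts downstream of lin-28, and lies at chrV:12968855-12970730 on the plus strand with 1 transcript. Its summit at 12968050 was 805 bp upstream, with a conservative signal of 125 (rank 1256) and 62.8 in replicate 1. The ranked list of replicate 2 had 61.0 there, with a global IDR of 0.185, so replicate 2 had no thresholded peak. The summit lay closer to a divergent neighbour, 68 bp upstream of R186.8, and 840 bp upstream of R186.3, both on the minus strand. The list gives no means of assigning the peak to lin-46 rather than to these genes.

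**Figure D2:**
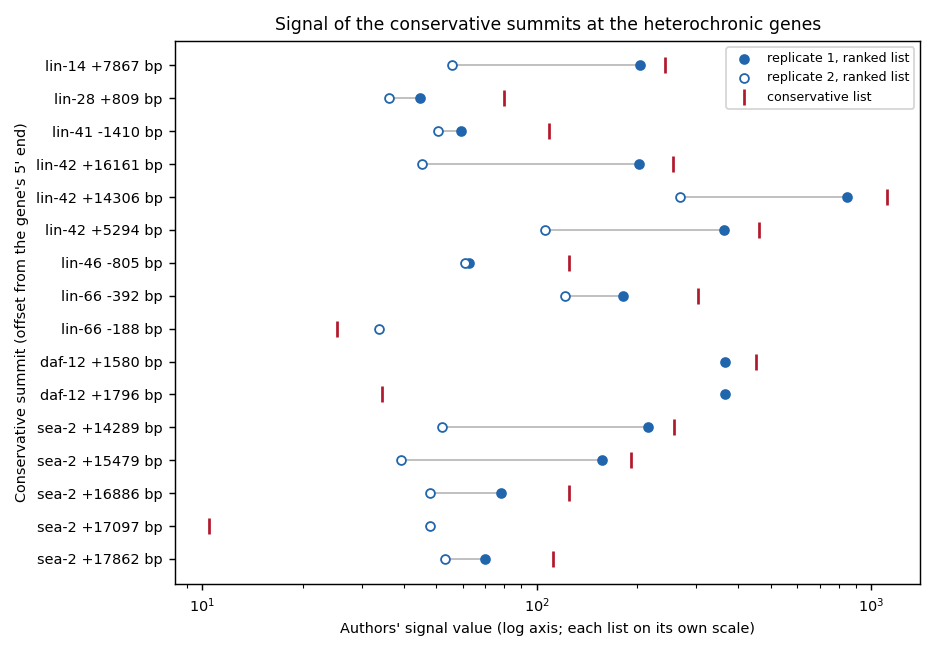
Authors' signal, on a log axis, of the 16 conservative summits in the conservative list (red bar) and in the replicates' own ranked lists (filled circle replicate 1, open circle replicate 2), each row labelled with its offset from the gene's 5′ end in bp. Each circle is the strongest interval covering the summit, whose own summit can lie elsewhere. At daf-12 10637704, the 365 of replicate 1 belongs to its summit at 10637455. At sea-2 3967474, the 48.0 of replicate 2 belongs to its summit at 3967289. A missing circle means that no interval of that ranked list covered the summit. Where both circles are present, replicate 1 is the higher in all 12, from 1.03 times at lin-46 to 4.45 times at the exon of lin-42. Over the 2070 conservative peaks with both values, the median ratio was 1.64.

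The remaining members had weak peaks or none. lin-41, which encodes a TRIM-NHL RNA-binding protein and is the classical target of let-7, lies on the minus strand at chrI:9334800-9342496. Its 1 conservative summit, at 9343906, was intergenic and 1410 bp upstream, with a signal of 109 (rank 1490). The replicates placed it within 14 bp and 8 bp, at 59.3 and 50.5, so its position was shared although its rank was low.

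lin-28, an RNA-binding protein that blocks let-7 maturation, lies on the minus strand at chrI:8407630-8410804. Its conservative summit at 8409995 lay in intron 1, 75 bp upstream of an internal 5′ end, with a signal of 79.9 (rank 2040 of 2194) and a global IDR of 0.00907, just inside the threshold of 0.01. The replicates' ranked lists gave 44.9 and 36.2. No other thresholded list had a summit in the lin-28 window, so the call rested on the conservative list.

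hbl-1, a hunchback-like zinc finger transcription factor and a target of the let-7 family, lies on the plus strand at chrX:5822142-5827755. It had no summit in any thresholded list. Its strongest region in the ranked list paired with the replicates, 1013 bp upstream at 5821129, had a signal of 55.3, rank 4838 and a global IDR of 0.121. That region had 43.3 in replicate 1 (global IDR 0.0591) and 19.1 in replicate 2 (global IDR 0.825). The nearest thresholded summit outside any member's window was also at hbl-1, 3760 bp upstream in the list of replicate 1 with a signal of 101.5, in an exon of the noncoding gene F13D11.21. The larger list had it 3770 bp upstream with 130.5. Within the 2000 bp limit, the farthest upstream thresholded summits were those of lin-41, 1410 to 1424 bp from the gene.

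The other thresholded lists gave similar numbers of genes. In the larger list 7 of the 9 members had a summit (16 summits), where 13.9% of all genes did. Replicate 1 had 7 members with 16 summits, beside 12.01% of all genes, and replicate 2 had 6 with 10 summits, beside 7.08%. lin-28 and hbl-1 were missing from all 3 of these lists, and lin-46 from that of replicate 2. Every member, hbl-1 included, had regions in the 4 ranked lists, 73 to 78 summits in all. There the share of all genes was 51.6% in the list paired with the replicates, 51.99% in the other, 53.9% in replicate 1 and 58.5% in replicate 2.

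The members were also long genes. The member windows ran from 3876 to 32968 bp with a median of 9697 bp, against a median of 4027 bp over all genes. Of the 1624 genes with windows at least as long as the members' median, 25% had a conservative summit. All 5 members of that length, lin-14, lin-41, lin-42, daf-12 and sea-2, had one. The part of length in the members' count was not tested.

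At promoters, 4 of 9 members had a conservative summit, lin-28, lin-46, lin-66 and sea-2, beside 4.86% of all genes. Those of lin-28 and sea-2 lay at internal 5′ ends, and that of lin-46 was shared with its neighbours. By first fitting class, 5 of the 16 summits were in promoters (31.2%), 5 in coding exons and 5 in introns, and 1 was intergenic. The promoter summits of lin-28 and sea-2 also lay in an intron and a coding exon of the gene. Over all 2194 nuclear conservative peaks, 38.5% were in promoters, 21.9% in coding exons, 14.8% in introns and 19.4% intergenic. The 3 strongest member summits, 1110 and 463 in lin-42 and 454 in daf-12, were all intronic.

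In strength the members were close to the list as a whole. Their median signal was 158 (n = 16) against 140 over all conservative peaks, and 8 of 16 lay above the list's median. Their ranks ran from 47 to 2193. The genes whose strongest summit was most like that of lin-42 in both replicates, by Euclidean distance of log2 signals over the 2 replicates, were Y39A1A.9 on chromosome III (962 and 270, distance 0.19) and F02C9.2 and tat-6, which shared 1 summit on chromosome V (704 and 259, distance 0.27).

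Agreement between replicates varied among the members. Thresholded summits within 200 bp were present in both replicates for 9 of 16, in replicate 1 for 14 and in neither for 2, those of lin-28 and sea-2 at 3967474. The same replicate summit could serve more than once. Both daf-12 summits were matched to that of replicate 2 at 10637594, and both lin-66 summits to that of replicate 1 at 13887703. Of the 13 summits that were the strongest in their run of overlapping intervals, 7 were matched in both. The share of all conservative peaks matched in these ways was not counted, so these counts are not shown to be particular to the members. In the ranked lists, 12 summits had a signal in both replicates, and the value of replicate 1 was the larger in 12 of 12. The share of all conservative peaks with a larger replicate 1 value was not counted, so that count is not shown to be particular to the members. These are the authors' values as deposited, not scaled to each other, so the ratio alone does not show more binding in replicate 1, and the ratios are read here against those of all peaks. The median ratio was 2.39, against 1.64 over the 2070 conservative peaks with both values. Member ratios ran from 1.03 to 4.45, and those of all such peaks from 0.128 to 42.9. By percentile rank within each list, replicate 1 placed only 6 of those 12 better. Replicate spread could be read only as the difference between these 2 values.

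The ratio went with base composition. Over the 101 bases centred on a summit, median GC content was 61.4% for members (from 42.6% to 77.2%) and 57.4% over all conservative peaks. GC was at least 60% at 10 of the 16 member summits (62.5%) and at 835 of all 2194 (38.1%). There the median ratio of replicate 1 to replicate 2 was 3.41 for members (n = 9), with values from 1.17 at lin-41 to 4.45 at lin-42, and 2.77 for all such peaks (n = 801). Below 60% GC it was 1.24 for members (n = 3, from 1.03 at lin-46 to 1.49 at lin-66) and 1.24 for all (n = 1269). At 60% GC or more, the lowest member ratios were 1.17 at lin-41 and 1.32 and 1.63 at sea-2. These were also the weakest summits of that group, with conservative signals of 109, 112 and 125. Below 60% GC, the lin-66 summit had a signal of 304 and a ratio of 1.49. The part of GC content in the signals was not tested, nor that of signal strength in the ratios.

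**Figure D3:**
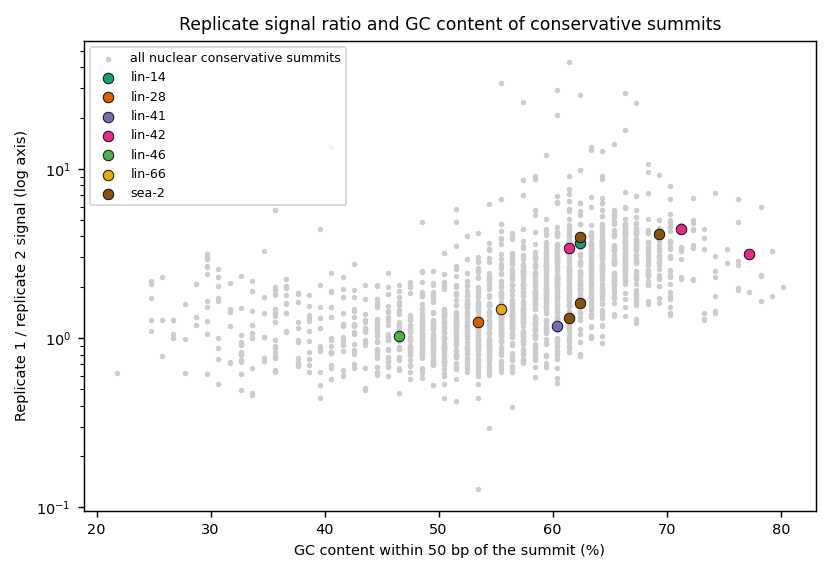
Ratio of replicate 1 to replicate 2 signal (log axis) against GC content within 50 bp of the summit (%), for the 12 member summits with a value in both ranked lists (coloured by gene) and all 2070 such conservative peaks (grey). lin-46 lies at 46.5% GC with a ratio of 1.03, and the exon summit of lin-42 at 71.3% GC with 4.45.

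Both strands within 50 bp of each summit were read for short sequences linked to EGR proteins. GTGGGCG or GTGGGTG was at 0 of the 16 member summits, at 71 of all 2194 (3.24%) and in 77 of 4388 windows centred 300 bp to each side (1.75%). GCGTGGG was at 0 of 16, at 40 of 2194 (1.82%) and in 12 flanking windows (0.273%), and GCGGGGGCG, which holds no copy of the others, at 0 of 16 and at 4 of 2194 (0.182%). The whole peak intervals of the members held none of these either. The absence of a match says only that these letters do not occur in these windows. GCGTGGG and GTGGGCG overlap in part, and a stretch holding both counted for each.

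GAGAGA, a simple repeat, was at 5 of 16 member summits, in 1 of lin-28, 1 of lin-42 (intron 1), both of lin-66 and 1 of sea-2 (3965856). It was at 433 of all 2194 peaks (19.7%) and in 306 of the 4388 flanking windows (6.97%), and in 4 of the members' 32. Over the whole intervals, that of the stronger lin-66 summit held 9 copies, that of lin-28 held 5 and that of lin-42 intron 6 held 3. The match describes the sequence and names no factor.

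A further 34 genes of the heterochronic and molting pathways, listed by their roles, were read with the same window. Conservative summits were found at 15 of them, 23 summits in all. Of the 29 that encode proteins, 12 had one, beside the 10.03% of all protein-coding genes. Of the 5 microRNA genes, 3 had one, beside 14.9% of 261 annotated microRNA genes. Of the 29 protein-coding genes, 13 had a summit in the larger list, beside 13.9% of all protein-coding genes, 13 in replicate 1, beside 12.01%, and 10 in replicate 2, beside 7.08%. The 3 microRNA genes had one in each of these lists. The windows of the 29 protein-coding genes ran from 3765 bp (dhs-16) to 20840 bp (din-1), against a median of 4027 bp over all genes. The part of length in these counts was not tested.

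Among the microRNAs, lin-4, which lowers lin-14 and lin-28, had a summit of 370, 349 bp upstream (284 in replicate 1, 80.8 in replicate 2), within an intron of its host gene F59G1.4. let-7 had summits of 201, inside the annotated gene, and 123, 1823 bp upstream, each in the promoter window of a neighbour, C05G5.7 and C05G5.2. mir-241, of the let-7 family, had a summit of 259, 518 bp upstream. mir-48 and mir-84, of the same family, had no conservative summit.

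In the microRNA machinery and its RNA regulators, 5 of 9 genes had a conservative summit. The strongest, 685 and rank 95, was 626 bp upstream of ain-1, a GW182-type partner of the Argonautes. The others were the Argonaute gene alg-2 (204, 35 bp upstream), the exonuclease gene xrn-2 (226, 213 and 149), the TRIM-NHL gene nhl-2 (160) and the Pumilio gene puf-9 (177). The xrn-2 summit of 226 lay 1231 bp upstream, in the promoter windows of Y48B6A.1 and rpl-43. That of 149 lay in a coding exon of rpl-43 and in the promoter windows of rpl-43 and xrn-2. The promoter window of tag-340 also held the nhl-2 summit. The Argonaute gene alg-1, ain-2, dcr-1 (Dicer) and pup-2 had none.

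Of the 4 genes listed as effectors of the larva-to-adult switch or LIN-41 targets, 2 had a summit. mab-10, which encodes a NAB-type cofactor of LIN-29, had 395 and 116, while lin-29, a zinc finger factor of the adult switch, had a weak intronic summit of 88.2. mab-3 and dmd-3 had none. In the hormone branch, din-1, a corepressor partner of DAF-12, had 4 summits (514, 391, 249 and 214). That of 514 was intergenic, 1526 bp upstream. Those of 391 and 249, at 11620058 and 11620257, had the same replicate signals, 307 and 100, and are not shown to be separate sites. daf-9, daf-36, hsd-1 and dhs-16, listed for hormone synthesis, had none.

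Of the 3 genes for protein turnover and kinase activity, kin-20, a casein kinase 1 homolog related to the fly clock kinase Doubletime, had 418 and 166. lep-2 had 95.1 at a promoter shared with egrh-2, and dre-1 had no conservative summit but 1 in the list of replicate 1. Of the 8 molting clock transcription factors, 2 had a conservative summit: myrf-1, a membrane-bound regulator of molting and wiring, had 720 (rank 91) 332 bp upstream, and myrf-2 had 144. blmp-1 had 1 summit in the larger list and 1 in replicate 1, and nhr-23 had 2 in replicate 1, but neither had a conservative one. nhr-25, nhr-85, grh-1 and bed-3 had no conservative summit. Promoter summits were found at 11 of the 29 protein-coding genes, beside 4.86% of all protein-coding genes. Those of xrn-2, nhl-2 and lep-2 were shared with neighbours.

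**Figure D4:**
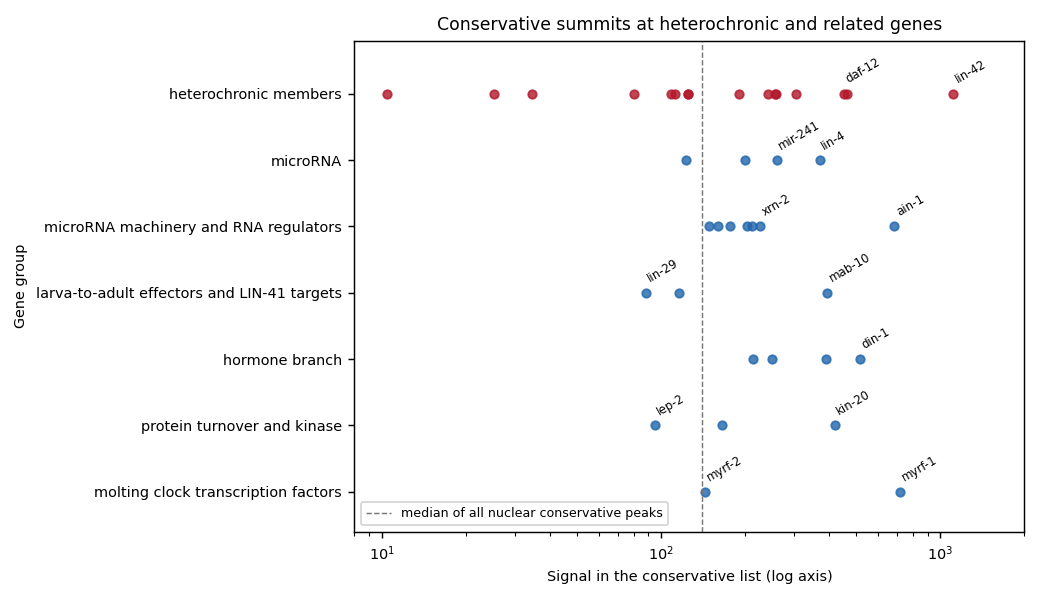
Signal in the conservative list (log axis) of every summit at the 9 members (red) and at the 34 other pathway genes by group (blue). Up to 2 genes of each group are labelled, and the dashed line is the median of all conservative peaks, 140. lin-42 (1110), myrf-1 (720) and ain-1 (685) lie farthest to the right.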

How the data were processed

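ChIP-seq peak lists for tagged EGRH-3 from 2 biological replicates, numbered as in the labels, were used as deposited, on ce11 per the file headers and the deposited file listing. Which aligner and peak caller were used is not given in the sources used here. Per the deposited listing, a control alignment entered every list, and its data were not used here. The authors gave each peak a signal with no stated scaling, a score up to 1000 that follows the IDR, and a −log10 q-value. The authors' deposited ranked lists also hold the −log10 global IDR, and the lowest score in each thresholded list, 830, corresponds to an IDR of 0.01. One ranked list was paired with the replicates because 72.8% of its first intervals were found in the ranked list of replicate 1, against 0% for the other.

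Summits were placed on the Ensembl release 115 annotation of WBcel235, and each took the first fitting class of promoter, UTR, coding exon, intron, noncoding exon and intergenic. The 5 microRNA names were matched through the RefSeq annotation. A replicate matched a summit when its own thresholded summit lay within 200 bp, and replicate signals came from the strongest ranked interval covering the summit. Python 3.11.15, numpy 2.4.6, pandas 2.3.3 and matplotlib 3.10.9 were used. No test was made, since there was 1 group. The members and lists were chosen with earlier results of these data known. The text names all 9 members, the 34 listed pathway genes, neighbours holding a member or pathway summit, and the 3 genes nearest to lin-42 in replicate signals. Alternatives were a stricter IDR, peaks above the median signal, other windows, and each replicate alone.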

Additional observations from a re-analysis of the deposited data

How the results depend on the processing

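With a global IDR under 0.001, 4 members (lin-42, lin-66, daf-12 and sea-2) had a summit in place of 8, with 7 summits in place of 16, and 1 promoter summit at 1 member in place of 5 at 4. With peaks above the median signal only, these values were 5 members, 8 summits, and 2 promoter summits at 2 members, and the median replicate ratio was 3.65 in place of 2.39. Without the upstream part of the window, 5 members had a summit and 2 summits were in promoters. A promoter of 500 bp left 2 members with a promoter summit (lin-28 and lin-66), and one of 2000 bp gave 10 promoter summits. GC content within 100 bp had a median of 58.5% in place of 61.4%, and matching within 50 bp left 5 summits matched in both replicates in place of 9.

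When only 1 replicate's thresholded list was used, there were 6 to 7 members, 10 to 16 summits, 2 to 4 promoter summits at 1 to 3 members, and a median GC content of 59.4% to 62.4%. The lower counts were those without replicate 1. Of 78 alternative values, 60 stayed within the spread or within 1.5 times the reported value, and 18 moved. The count of GTGGGCG or GTGGGTG was 0 under every alternative run. Counting 1 summit per run of overlapping intervals was chosen after seeing the data. No paired analysis was possible because all samples belonged to 1 group. The depth is unknown, so absence from a list, as for hbl-1, does not show absence of binding.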
